A study of Mus musculus with 10 samples.

Results

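Macrophages and other leukocytes living in heart and skeletal muscle were read through 10 marker genes: Ptprc, Cd68, Csf1r, Cd163, Mrc1, Lyz2, Cd74, C1qa, C1qb and C1qc. The members were chosen by name, and all 10 were found by symbol among the 23337 genes of the series. RNA-Seq had been made from the left ventricle (LV) and a skeletal muscle (SkM) of the same 5 mice, which gave 10 libraries. The 3 E0del/+ mice were heterozygous for a CRISPR/Cas9 deletion of E0, a conserved element in the first intron of Ttn, the gene of the sarcomere protein titin. The 2 WT mice lacked the deletion. All were hybrids of a C57BL/6 E0del/+ and a 129SvEv WT parent. Both sexes were used, and neither the age of these mice nor the muscle sampled is given in the sources used here. The labels give a batch to each library: batch 1 and batch 2 each held 1 E0del/+ and 1 WT mouse, and batch 3 held E0del/+ replicate 3 alone. Total counts ran from 11010021 (E0del/+ LV replicate 2) to 17484873 (WT SkM replicate 2), so that 1 count was worth 0.0572 to 0.0908 CPM (counts scaled to a common library total). Some libraries stood apart: the SkM libraries of batch 1 held lymphocyte transcripts, and WT LV replicate 2 held skeletal muscle transcripts.

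Resident macrophages sit between muscle fibres and around vessels, where they clear dead cells and debris, and in the heart they also take up material shed by cardiomyocytes. Many depend on signals through the CSF1 receptor. The 10 genes mark different layers of this population. Ptprc encodes CD45, the phosphatase on the surface of nearly all leukocytes. Csf1r encodes the receptor for the growth factors CSF1 and IL-34. Mrc1 (CD206) and Cd163 encode scavenger receptors of tissue-resident macrophages, and Cd68 a glycoprotein of their lysosomes. Lyz2 encodes lysozyme of myeloid cells. C1qa, C1qb and C1qc encode the chains of C1q, the recognition unit of complement, which in tissue is made mainly by macrophages. Cd74 encodes the invariant chain that guides MHC class II molecules, and is high in B cells and dendritic cells as well as in macrophages.

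Coordinates are those of mm10. C1qb, C1qc and C1qa stand side by side on the minus strand of chromosome 4, within 18700 bases (chr4:136880145-136898844).  Ptprc is at chr1:138062861-138175305, Mrc1 at chr2:14229414-14332023, Cd163 at chr6:124304651-124330527, Cd68 at chr11:69664371-69666062 and Lyz2 at chr10:117277541-117282272. Counts were taken over exons, from 1008 exonic bases for Cd68 to 5664 for Ptprc. Lyz2 has a close copy, Lyz1, in the neighbouring position. Reads of such a pair can be split between them, so the level of Lyz2 is uncertain, although Lyz1 held no more than 3.38 CPM in any library.

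The stretches before the starts of the members were read where the reference held them. RefSeq promoter entries (GRCm38.p6) were found for 7 of the 10 members. The motif AGGAAGT, or ACTTCCT on the opposite strand, is a core that ETS factors such as the myeloid factor PU.1 can bind. It was chosen after the promoters had been read, so its count among the members cannot test for enrichment. Members were counted by gene, and the shares of all promoters by entry. It was found in the 250 bases before the start of 5 members (C1qb, C1qc, Lyz2, Mrc1 and Ptprc), and in 7.69% of all 32851 promoter entries. A shorter form, GAGGAA or TTCCTC, which can overlap the first, was found for 5 members (C1qb, C1qc, Cd68, Mrc1 and Ptprc) and in 23.3% of all entries. Capitals mark AGGAAGT or ACTTCCT in 4 of these sequences, printed on the strand of the gene and ended before any annotated exon. They cover chr4:136886201-136886450 (minus strand, C1qb), chr10:117282322-117282522 (minus strand, Lyz2), chr2:14229164-14229391 (plus strand, Mrc1) and chr1:138175307-138175555 (minus strand, Ptprc).
C1qb: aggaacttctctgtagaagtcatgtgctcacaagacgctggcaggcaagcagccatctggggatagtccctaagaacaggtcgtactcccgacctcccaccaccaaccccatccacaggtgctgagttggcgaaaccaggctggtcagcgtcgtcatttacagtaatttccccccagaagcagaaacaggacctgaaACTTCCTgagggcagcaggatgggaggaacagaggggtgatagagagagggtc
Lyz2: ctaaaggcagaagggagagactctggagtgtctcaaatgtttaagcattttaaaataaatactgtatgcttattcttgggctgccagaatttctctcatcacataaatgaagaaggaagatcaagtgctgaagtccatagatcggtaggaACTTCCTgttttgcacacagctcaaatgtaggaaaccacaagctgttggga
Mrc1: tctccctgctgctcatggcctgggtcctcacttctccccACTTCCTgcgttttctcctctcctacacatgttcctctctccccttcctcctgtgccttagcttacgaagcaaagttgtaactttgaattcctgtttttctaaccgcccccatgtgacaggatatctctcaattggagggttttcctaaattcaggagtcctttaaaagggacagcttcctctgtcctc
Ptprc: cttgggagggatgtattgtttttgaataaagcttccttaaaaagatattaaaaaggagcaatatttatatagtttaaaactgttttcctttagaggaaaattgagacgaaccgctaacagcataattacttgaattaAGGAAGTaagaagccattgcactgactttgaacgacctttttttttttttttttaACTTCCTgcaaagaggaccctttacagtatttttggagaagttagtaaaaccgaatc
The match lay 53 bases before the start in C1qb, 100 in Lyz2 and 211 in Mrc1. Ptprc had 2 matches, 113 and 58 bases before the start. A match is a description of letters, and no binding was measured here.

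The first comparison set LV against SkM within each mouse, and most macrophage genes were higher in the heart. In a paired fit across all 13283 genes tested (edgeR quasi-likelihood test, Benjamini-Hochberg adjusted p under 0.05), 8 of the 10 members were higher in LV and 0 were lower. Of all genes tested 32.1% were called higher in LV, and 62.1% were called in either direction. The 2 members that were not called were Ptprc and Cd74. All 10 members passed the filter on low counts. Fold changes are given on the log2 scale with their standard error (SE). The median log2 fold change was 1.65 over the members and 0.02 over all genes tested. In bulk tissue, more macrophages and more RNA per macrophage cannot be told apart.

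Csf1r, at chr18:61105572-61131139, showed the tissue difference plainly. Its LV libraries held 53.3, 54.8 and 42.2 CPM in E0del/+ replicates 1 to 3 and 52.6 and 36.7 CPM in WT replicates 1 and 2. Its SkM libraries held 4.68, 7.60, 10.8, 7.92 and 1.72 CPM in the same order of mice. The lowest LV was thus above the highest SkM. The log2 fold change was 2.37 (SE 0.31, adjusted p = 0.000374, edgeR), a 5.19-fold difference, and LV was higher in 5 of 5 mice.

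The C1q chains behaved alike. C1qc held 17.8, 29.2 and 17.2 CPM in E0del/+ LVs and 20.9 and 11.9 CPM in WT LVs. In SkM it held 1.42, 1.73 and 4.29 CPM in E0del/+ and 3.02 and 1.09 CPM in WT. No SkM library reached the lowest LV library, and C1qc had the largest log2 fold change of the members, 2.50 (SE 0.28, adjusted p = 0.000165, edgeR). C1qa ranged from 9.54 to 20.1 CPM in LV and from 1.03 to 2.89 CPM in SkM, with a log2 fold change of 2.32 (SE 0.26, adjusted p = 0.000159, edgeR). C1qb ranged from 17.3 to 33.2 CPM in LV and from 1.77 to 5.77 CPM in SkM, with a log2 fold change of 2.20 (SE 0.23, adjusted p = 0.000121, edgeR). Per length, in RPKM (counts scaled to exonic length and library total), C1qb stood above C1qa in each library, at 1.74 ± 0.28 times its level in LV and 1.87 ± 0.19 times in SkM (SD, n = 5).

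The scavenger, lysosomal and lysozyme genes were also higher in LV. Cd68 was at 5.42 ± 2.10 CPM in LV and 0.945 ± 0.147 CPM in SkM (SD, n = 5), a log2 fold change of 1.79 (SE 0.25, adjusted p = 0.00054, edgeR). Its SkM values rest on 13 to 16 counts a library. Lyz2 was at 79.4 ± 23.4 CPM in LV and 18.8 ± 8.84 CPM in SkM, a log2 fold change of 1.51 (SE 0.26, adjusted p = 0.00134, edgeR). Mrc1 was at 22.2 ± 4.61 CPM in LV and 5.61 ± 3.00 CPM in SkM, a log2 fold change of 1.52 (SE 0.35, adjusted p = 0.00615, edgeR). The call of Mrc1 was lost with the mice of batches 2 and 3 only (1.45, adjusted p = 0.0708, edgeR). It was also lost with the E0del/+ mice of these batches only (0.72, adjusted p = 0.0622, edgeR).

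Cd163 had the smallest of the called differences. It held 23.1, 18.8 and 18.8 CPM in E0del/+ LVs and 20.7 and 16.8 CPM in WT LVs, against 8.49, 10.3 and 12.5 CPM in E0del/+ SkM and 6.26 and 4.80 CPM in WT SkM. The libraries did not overlap on this scale, but the log2 fold change after TMM scaling was 0.61 (SE 0.23, adjusted p = 0.0462, edgeR). On normalized CPM, LV was higher in 3 of 5 mice. The call was lost without E0del/+ replicate 1 (adjusted p = 0.130), WT replicate 1 (0.143) or WT replicate 2 (0.109), and without the mouse block (0.0590).

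**Figure D1:**
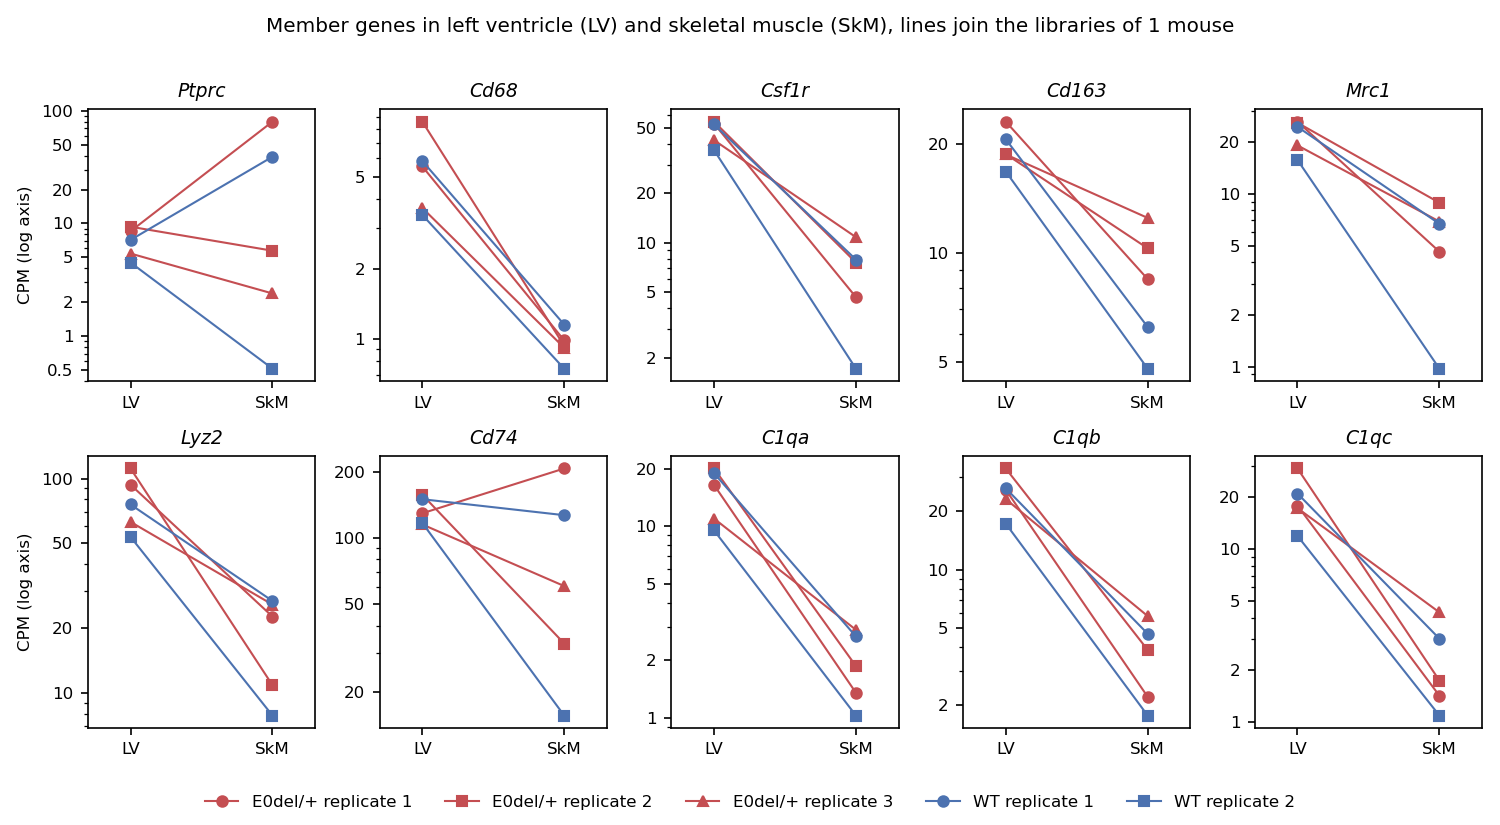
Level of each member in the LV and SkM library of each mouse, in CPM on a log axis. Lines join the libraries of 1 mouse, colours give the genotype and symbols the replicate. Ptprc and Cd74 are the members whose lines do not all fall, with Ptprc at 80.1 and 39.1 CPM in the SkM libraries of replicate 1.

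The scale mattered for the size of these differences. CPM by total counts placed the median gene 0.68 higher in LV on the log2 scale, against 0.02 after TMM scaling. With total counts, 83.2% of the genes called were higher in LV, against 51.7% with TMM. By plain CPM, 8 members had each LV library above each SkM library, as did 52.1% of all genes tested. By TMM normalized CPM it was 7 members (all but Ptprc, Cd74 and Cd163), against 26.5% of all genes tested. In an exact permutation of signs within mice on log2(CPM + 0.5), 2-sided, the 8 called members each gave p = 0.063, the smallest that 5 mice allow, while Cd74 gave 0.188 and Ptprc 0.813. Of all genes tested 60.6% were higher in LV in all 5 mice by CPM, and 32.5% by TMM normalized CPM. On normalized CPM the same exact test gave Cd163 p = 0.25, with LV higher in 3 of 5 mice.

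Ptprc, the pan-leukocyte gene, went another way. In LV it held 8.53, 9.36 and 5.41 CPM in E0del/+ mice and 7.14 and 4.50 CPM in WT mice. In SkM it held 80.1, 5.73 and 2.39 CPM in E0del/+ replicates 1 to 3, and 39.1 and 0.515 CPM in WT replicates 1 and 2. The last value rests on 9 counts (95% Poisson interval 0.235 to 0.977 CPM, counting error only). The SkM libraries thus spanned a 156-fold range, against 2.08-fold in LV. SkM was 9.39-fold above LV in E0del/+ replicate 1 and 5.47-fold above it in WT replicate 1, while the other 3 mice had more in LV by plain CPM. By TMM normalized CPM 2 mice had more in LV, and E0del/+ replicate 2 stood at 0.859 of its SkM level. The log2 fold change was -1.11 (SE 0.89, adjusted p = 0.307, edgeR), and it was -2.44 (adjusted p = 0.0404) without the mouse block.

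Cd74, at chr18:60803849-60812652, split in the same manner. Its LV libraries lay between 115 and 157 CPM. Its SkM libraries held 207, 33.2 and 60.5 CPM in E0del/+ replicates 1 to 3 and 127 and 15.6 CPM in WT replicates 1 and 2. The replicate 1 SkM libraries of both genotypes were again the highest, and the tissues overlapped. The log2 fold change was 0.45 (SE 0.46, adjusted p = 0.423, edgeR), and -0.000567 without the mouse block.

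The SkM libraries with high Ptprc and Cd74 were those of batch 1, and they also held lymphocyte transcripts. All 5 B cell markers were higher in both batch 1 SkM libraries than in the other 3, and so were 8 of 10 T cell and NK cell markers and 7 of 7 MHC class II genes. Among the 9 members with a mean of at least 5 CPM, 2 had that order (Ptprc and Cd74), beside 29.3% of the 10349 genes at or above that mean. Cd68, which lies below it, had that order by plain CPM too, but on 16 counts in each batch 1 library against 13 to 14 in the others. By TMM normalized CPM it did not, with E0del/+ SkM replicate 2 (1.25) above E0del/+ SkM replicate 1 (1.16). The B cell markers summed to 79.8 and 33.6 CPM in the E0del/+ and WT SkM libraries of batch 1, and to 2.20 CPM in E0del/+ SkM replicate 2, 0.704 CPM in E0del/+ SkM replicate 3 and 0.114 CPM in WT SkM replicate 2. The LV libraries had B cell sums of 1.63 to 3.45 CPM. The T cell and NK cell markers summed to 54.7 and 34.7 CPM in batch 1 SkM, to 6.996 CPM in E0del/+ SkM replicate 2, 4.93 CPM in E0del/+ SkM replicate 3 and 4.40 CPM in WT SkM replicate 2, and to 2.02 to 4.09 CPM in LV. Lck, a kinase of the T cell receptor, was at 15.1 and 8.28 CPM in batch 1 SkM and at no more than 1.20 CPM in the other 3. WT SkM replicate 1 also held the Y-linked gene Ddx3y at 12.5 CPM, against 0.384 CPM in the LV of the same mouse. The part of these cells in the levels of Ptprc and Cd74 was not tested.

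**Figure D2:**
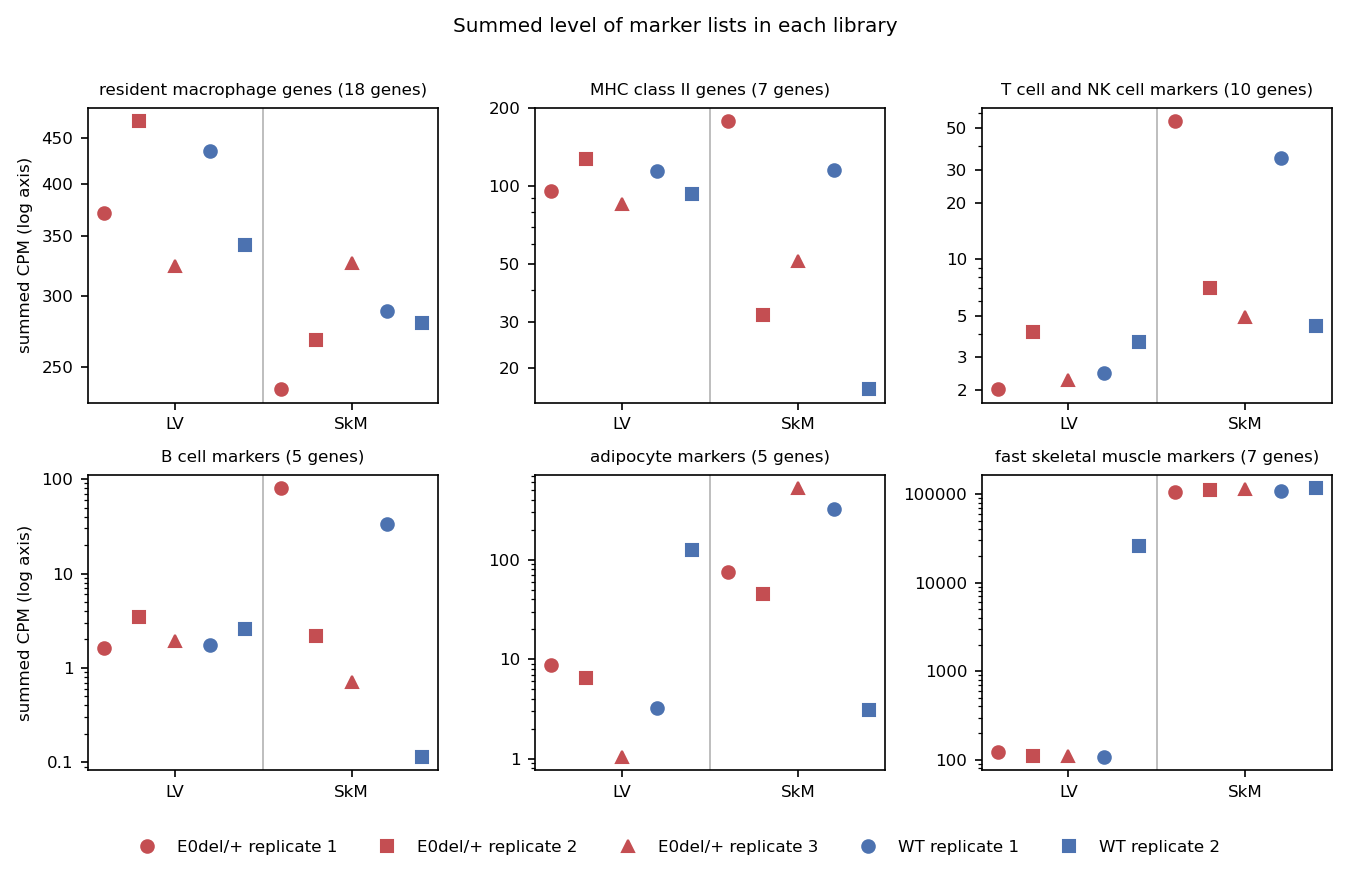
Summed CPM of 6 marker lists in each library, on log axes, with colours for genotype and symbols for replicate. B cell and T cell markers stand high in the SkM libraries of replicate 1, and fast skeletal muscle markers stand at 26151 CPM in WT LV replicate 2.

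Csf1r and C1qa were not highest in the batch 1 SkM libraries. In E0del/+ SkM replicate 1, which had the highest lymphocyte sums, Csf1r was at 4.68 CPM and C1qa at 1.35 CPM, each below 3 of the other SkM libraries. In WT SkM replicate 1, Csf1r was at 7.92 CPM and C1qa at 2.66 CPM, each second to E0del/+ SkM replicate 3 by plain CPM. Lyz2 (26.8 CPM) and Cd68 (1.15 CPM) were at their highest SkM level there by plain CPM. By TMM normalized CPM this held for Cd68, but Lyz2 was higher in E0del/+ SkM replicate 3 (33.0 against 29.8). Csf1r was on that scale also higher in E0del/+ SkM replicate 2 (10.2 against 8.79). Per length, Ptprc stood at 0.0838 to 0.117 of the level of Csf1r in the 5 LV libraries. In SkM the same RPKM ratio was 11.7 and 3.38 in the E0del/+ and WT libraries of batch 1, and 0.516, 0.205 and 0.151 in E0del/+ replicate 2, WT replicate 2 and E0del/+ replicate 3. Cd74, in contrast, kept a narrow range of ratios to H2-Aa, an MHC class II chain that it escorts. The RPKM ratio was 3.25 ± 0.16 in LV and 2.82 ± 0.30 in SkM (SD, n = 5), although Cd74 itself varied 13.3-fold between SkM libraries. This ratio also followed the batch in SkM, at 3.19 and 3.09 in the E0del/+ and WT libraries of batch 1. The other SkM libraries were at 2.52 to 2.69, below the LV range of 3.07 to 3.43.

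An alternative chosen after the data were seen left out both batch 1 mice. With the 3 mice of batches 2 and 3, the log2 fold change of Cd74 was 1.27 (SE 0.36, adjusted p = 0.0332, edgeR), and that of Ptprc turned to 0.78 (SE 0.53, adjusted p = 0.268). The macrophage members kept their direction: Csf1r was at 2.24, C1qa at 2.09, C1qb at 2.03, C1qc at 2.39, Cd68 at 1.72 and Lyz2 at 1.72, each with an adjusted p under 0.05. Mrc1, at 1.45 (adjusted p = 0.0708), and Cd163, at 0.32 (adjusted p = 0.393), no longer passed. In all 7 members were called, all higher in LV, of which Cd74 was not among the first 8. Of all genes tested with these mice 24.8% were called higher in LV, and 46.6% in either direction.

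**Figure D3:**
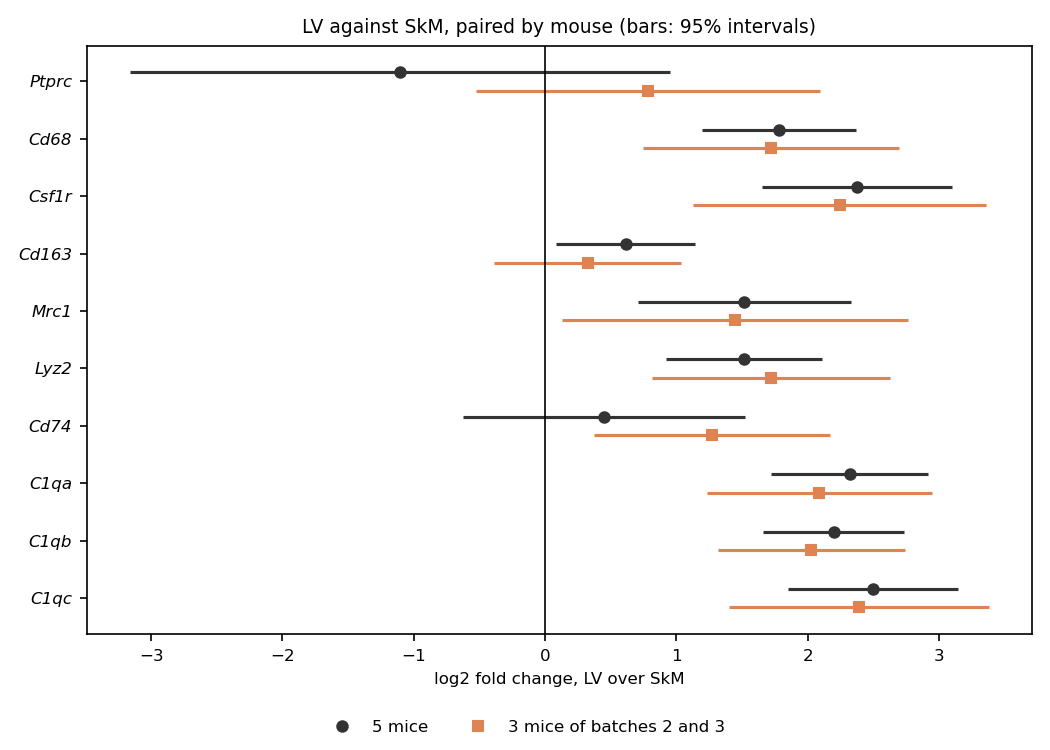
Log2 fold change of LV over SkM for each member with its 95% interval, from all 5 mice and from the 3 mice of batches 2 and 3. The intervals of Ptprc span 0 in both fits, and that of Cd74 lies above 0 once the batch 1 mice are left out.

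Cell types other than leukocytes were also unevenly spread. WT LV replicate 2 held 26151 CPM of the 7 fast skeletal muscle markers, which was 22.6% of the sum in the SkM library of the same mouse. The other LV libraries held 108 to 123 CPM, at most 0.117% of their SkM partner. Myh4, a fast myosin heavy chain and the most abundant of the list, was at 18473 CPM in that LV. Its 5 ventricle markers summed to 49530 CPM, against 62155 to 72044 CPM in the other LVs, with Myh6 the most abundant. WT LV replicate 2 also had the lowest CPM of the LVs for 9 of the 10 members and for 37% of all genes tested. By normalized CPM it was the lowest for 8 members and 25% of all genes. The adipocyte markers summed to 523 CPM in E0del/+ SkM replicate 3, 328 CPM in WT SkM replicate 1 and 125 CPM in WT LV replicate 2, and to 1.05 to 76.0 CPM elsewhere, with Plin1 the most abundant. Their part in the levels of the members was not tested. Without the batch 1 mice and the WT mouse of batch 2, an alternative also chosen after the data were seen, 6 members were called, all higher in LV: Cd68, Csf1r, Lyz2, C1qa, C1qb and C1qc. The log2 fold change of Csf1r was 1.63 in that fit. Mrc1, at 0.72 (adjusted p = 0.0622, edgeR), and Cd163, at -0.051 (adjusted p = 0.898, edgeR), were not called. Of all genes tested there 22.7% were called higher in LV, and 42.4% in either direction.

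Other macrophage genes were mostly higher in LV as well. Of 16 resident macrophage genes tested (18 listed), 11 were higher in LV and 2 were lower, with a median log2 fold change of 1.95. The share of all genes tested that were called higher in LV, 32.1%, applies to this and each list named after it. Stab1, a scavenger receptor also found on some endothelium, was at 216 ± 43.4 CPM in LV and 26.5 ± 8.10 CPM in SkM (SD, n = 5). The log2 fold changes were 2.40 for Stab1, 3.08 for the chemokine receptor Cx3cr1 and 2.81 for the hyaluronan receptor Lyve1. Maf, a transcription factor that muscle also expresses, was lower in LV, at -3.94. It held 144 to 192 CPM in SkM and 11.3 to 44.2 CPM in LV. The list summed to 324 to 470 CPM in LV and 236 to 326 CPM in SkM, where the tissues overlapped. Without Maf, a choice made after the data were seen, it summed to 298 to 454 CPM in LV and 69.2 to 183 CPM in SkM. Stab1 stayed in both sums, at 166 to 269 CPM in LV and 14.1 to 36.4 CPM in SkM. Whether the tissues stay apart without Stab1 was not tested. Ms4a7 and Vsig4 were too low to test.

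Of the 2 ligands of the CSF1 receptor 1 was higher in LV, as were most complement genes. Csf1, the first ligand of the CSF1 receptor, was at 81.4 CPM in LV and 11.0 CPM in SkM, a log2 fold change of 2.24 (SE 0.09, adjusted p = 3.51e-06, edgeR). The second ligand, Il34, had a log2 fold change of -0.14 and was not called. The same list of 5 genes held receptor chains for other colony stimulating factors, which are not part of CSF1 signalling. Of these, Csf2ra (GM-CSF) and Csf3r (G-CSF) were higher in LV and Csf2rb was lower. Csf2rb was at 13.4 and 17.3 CPM in the E0del/+ and WT SkM libraries of batch 1. The other SkM libraries held 1.20 to 5.28 CPM of it, and the LV libraries 2.27 to 4.75 CPM. Of 10 complement genes tested, 7 were higher in LV and 0 were lower, with a median of 1.74. They included C3, the central component, at 274 CPM in LV and 71.2 CPM in SkM. The anaphylatoxin receptors C5ar1 and C3ar1 had log2 fold changes of 2.97 and 2.24. Cd93, a receptor also found on endothelium, was at 198 CPM in LV and 29.0 CPM in SkM.

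Pan-myeloid genes were mixed, with a share higher in LV close to the 32.1% of all genes tested. Of 12 tested, 4 were higher in LV, among them Fcer1g (log2 fold change 1.38) and the integrin chain Itgam (1.37), and 2 were lower, the transcription factor Irf8 and the lectin Lgals3 (-1.69). The 2 most abundant, Coro1a and Laptm5, are shared with lymphocytes and were not called. Coro1a was at 61.0 and 30.5 CPM in the batch 1 SkM libraries and at 2.12 to 3.94 CPM in the other SkM libraries. Of the 7 MHC class II genes, 0 were called, with a median of -0.16. H2-Ab1 was at 33.1 ± 5.66 CPM in LV and 22.1 ± 16.6 CPM in SkM (SD, n = 5), and H2-Aa at 31.2 and 22.3 CPM.

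Other leukocytes gave few counts. Of the 8 monocyte genes, 2 could be tested and 0 were called. Hp, the most abundant, is also made by fat and was at 61.4 CPM in E0del/+ SkM replicate 3. All 6 neutrophil markers had means under 1 CPM in both tissues, Ngp being the most abundant. Of 4 mast cell markers tested 0 were called, with Mcpt4 at 2.25 CPM and Tpsb2 at 1.58 CPM in LV. Of 3 dendritic cell markers tested, Zbtb46 (log2 fold change 1.21), which endothelium also expresses, and Clec9a (2.37) were higher in LV. Among 3 T cell and NK cell markers tested, Cd3e was lower in LV, by a log2 fold change of -5.26. Of the B cell markers 1 was tested, and 0 were called.

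Endothelial and fibroblast markers were also higher in LV. All 5 endothelial markers were higher in LV, with a median log2 fold change of 1.99, among them Cdh5 (1.99), Kdr (2.77) and Tie1 (2.44). All 5 fibroblast markers were higher, with a median of 1.69, among them Dcn (1.69), Lum (2.24) and Pdgfra (2.20). The red cell markers Alas2 (1.11) and Beta-s, a beta globin gene (1.08), were higher, and both alpha globin genes were listed at 0 in all libraries. Of the adipocyte markers 0 were called, with a median of -4.25. The labels of the tissues held up against their own markers: 5 of 5 ventricle markers were higher in LV, with a median of 8.58, and 7 of 7 fast skeletal muscle markers were lower, with a median of -9.63. Whether the difference of the macrophage members exceeded that of endothelium or fibroblasts was not tested.

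Ordered by length-scaled level, Cd74 and Lyz2 led in both tissues. Mean RPKM in LV was 94.6 for Cd74, 75.2 for Lyz2, 23.7 for C1qb, 18.4 for C1qc, 14.1 for C1qa, 12.4 for Csf1r, 5.37 for Cd68, 4.37 for Cd163, 4.17 for Mrc1 and 1.23 for Ptprc. In SkM, Ptprc moved from the last place to the third, at 4.51 RPKM, with an SD of 6.06 that exceeded its mean. In LV the means of Cd68 (5.37 ± 2.08), Cd163 (4.37 ± 0.53) and Mrc1 (4.17 ± 0.87) lay within 1 SD of Cd68 (RPKM, SD, n = 5), although Cd68 was above Mrc1 in each of the 5 LV libraries.

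The spread between libraries, as the coefficient of variation of CPM, was wider in SkM for 9 of the 10 members and for 57.1% of all genes tested. Without both libraries of WT replicate 2 it was wider in SkM for 9 members and 53.9% of all genes. The coefficient of variation of CPM lay between 12.1% (Cd163) and 38.7% (Cd68) in LV. In SkM it was 134% for Ptprc, 88.6% for Cd74, and between 15.5% (Cd68) and 57.6% (C1qc) for the other members. Cd68 was the exception. WT SkM replicate 2 was the lowest SkM library for all 10 members on both scales, and for 43.6% of all genes by CPM and 29.1% by normalized CPM. E0del/+ SkM replicate 3 was the highest by CPM for 5 members (Csf1r, Cd163, C1qa, C1qb and C1qc) and 15.1% of all genes, and by normalized CPM for 6 members and 14.8%. In LV, E0del/+ replicate 2 was the highest for 8 members and 46.6% of all genes by CPM. By normalized CPM it was the highest for 4 members and 29% of all genes, and E0del/+ replicate 1 for another 4 members and 11.5%.

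Within tissues the C1q genes varied together, and Ptprc with Cd74. Over the 10 libraries, which share 5 mice, with log2 normalized CPM centred on each tissue's mean, Pearson's r was 0.92 between C1qa and C1qb, 0.93 between C1qb and C1qc, and 0.94 between Csf1r and Mrc1. It was 0.92 between Ptprc and Cd74, but between -0.01 and 0.09 for Ptprc with each C1q gene. These values describe these libraries, and no test was made. Csf1r had the highest r with the mean of the other members (0.90), and Ptprc the lowest (0.37). Several of these values leaned on WT SkM replicate 2, the lowest SkM library for each member. Over the other 9 libraries, an alternative chosen after the data were seen, r was 0.89 between C1qa and C1qb, 0.91 between C1qb and C1qc and 0.84 between Ptprc and Cd74. It was 0.78 between Csf1r and Mrc1, and Ptprc turned from 0.30 to -0.81 with Csf1r and lay between -0.71 and -0.45 with each C1q gene. The r with the mean of the other members was then highest for C1qa (0.92), and it was 0.66 for Csf1r and -0.47 for Ptprc.

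**Figure D4:**
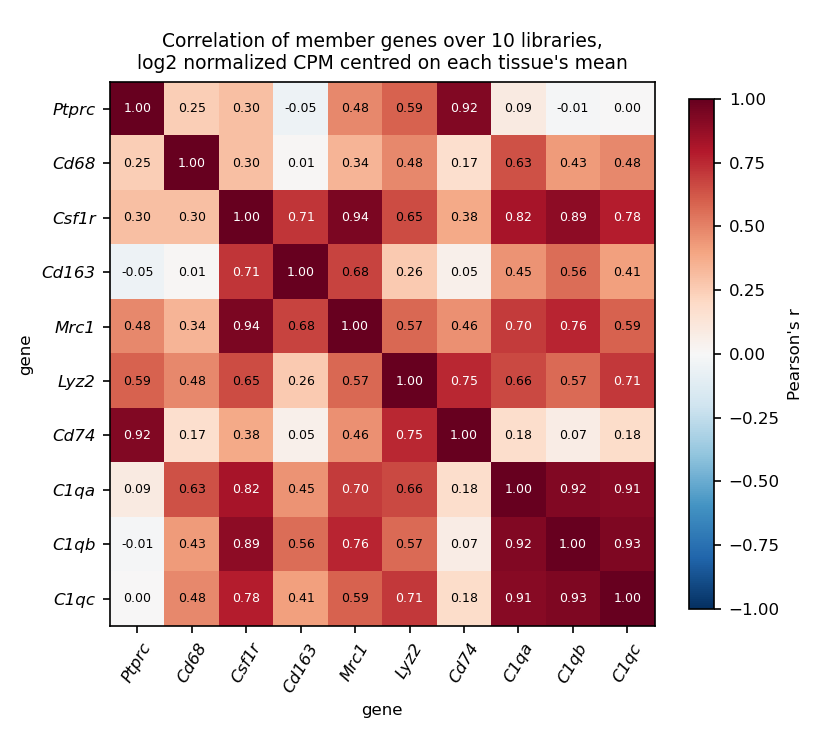
Pearson's r between members over 10 libraries, from log2 normalized CPM centred on the mean of each tissue. The C1q genes form a block at 0.91 to 0.93, and Ptprc pairs with Cd74 at 0.92. Ptprc and Csf1r are at 0.30 here and at -0.81 without WT SkM replicate 2.

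Outside the members, 10335 genes with a mean of at least 5 CPM were compared with the mean of the centred and scaled members over the same 10 libraries. Of these, 103 had r over 0.9. The mean of the members was -1.66 in WT SkM replicate 2 and between -0.68 and 0.94 in the other libraries. Without that library 28 genes had r over 0.9, of which 9 were among the 103. The 10 highest were Arhgef40 (0.979), Cdc42ep1 (0.976), Lpar6 (0.975), Pltp (0.969), Spnb2 (0.967), Syde1 (0.967), Grn (0.966), Cald1 (0.964), Syde2 (0.963) and Ehd2 (0.959). Over the other 9 libraries their r was 0.858 to 0.921, and 0 of them were among the 10 highest. Grn encodes progranulin, a lysosomal glycoprotein, and Pltp a phospholipid transfer protein. Lpar6 is a receptor for lysophosphatidic acid. Cald1 encodes caldesmon, which binds actin, and Spnb2 a spectrin. All 10 had higher mean CPM in LV than in SkM, as did 77% of the genes compared. Grn was at 137 CPM in LV and 26.6 CPM in SkM.

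The second comparison set E0del/+ against WT within each tissue, to ask whether the deletion went with a different macrophage signal. No member was called in either tissue. In LV, edgeR called 0 of 10 members and 0 of 13420 genes tested (0%), with 564 genes at an unadjusted p under 0.05 and 12 genes called by DESeq2. In SkM, edgeR called 0 of 10 members and 0 of 13154 genes (0%), with 114 genes at an unadjusted p under 0.05 and 0 called by DESeq2. DESeq2 called 0 members in SkM, and in LV it gave an adjusted p for Cd74 alone, which was not called. With the batch as a block, 5 genes were called in LV and 1 in SkM, and none was a member. Without WT LV replicate 1, 578 genes were called in LV, where WT LV replicate 2 with its skeletal muscle transcripts was then the lone WT library, and 0 members were among them.

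In LV the members of both genotypes overlapped. Csf1r was at 50.1 ± 6.86 CPM in E0del/+ (SD, n = 3) and 44.7 ± 11.2 CPM in WT (SD, n = 2), a log2 fold change of 0.10 (95% interval -0.30 to 0.51). Lyz2 had the largest log2 fold change, 0.39 (95% interval -0.10 to 0.89), with 93.7, 112 and 62.8 CPM in E0del/+ and 75.7 and 53.5 CPM in WT. Cd74 was at 134 CPM in both genotypes, with a log2 fold change of -0.06 (95% interval -0.45 to 0.32). The median over the members was 0.22, against -0.01 over all genes tested. It was -0.01 over the members without WT LV replicate 2, and 0.56 without WT LV replicate 1. The adjusted p was 0.997 for each member (edgeR).

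In SkM the intervals were wider. Cd163 was the member with the least overlap, at 8.49, 10.3 and 12.5 CPM in E0del/+ and 6.26 and 4.80 CPM in WT. Each E0del/+ library was above each WT library, with a log2 fold change of 0.94 (95% interval 0.29 to 1.59, unadjusted p = 0.0128 and adjusted p = 1.00, edgeR). An exact permutation of the genotype labels gave p = 0.1, 2-sided, the smallest that 2 against 3 mice allow. Ptprc had a 95% interval of -3.89 to 5.18 around a log2 fold change of 0.65, so that no difference was detectable for it with these libraries. The median over the members was 0.46, against -0.01 over all genes tested. It was -0.15 over the members without WT SkM replicate 2 and 1.14 without WT SkM replicate 1. Without both batch 1 libraries, an alternative chosen after the data were seen, it was 1.33, with 6 members at an unadjusted p under 0.05 and 0 called (edgeR), and WT SkM replicate 2 was then the lone WT library.

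Within batches the genotype values differed. In batch 1 LVs, 5 of 10 members had more CPM in E0del/+ than in WT, with a median ratio of 0.999, as did 43.2% of all genes tested. By TMM normalized CPM it was 6 of 10, with a median ratio of 1.02, and 49.7% of all genes. In batch 2 LVs, 10 of 10 did, with a median ratio of 2.00, from 1.12 (Cd163) to 2.52 (Cd68), as did 67.2% of all genes. By TMM normalized CPM it was 9 of 10 there, with a median ratio of 1.66, from 0.924 (Cd163) to 2.09 (Cd68), and 48.1% of all genes. In batch 1 SkM, 3 of 10 members (Ptprc, Cd163 and Cd74) had more in E0del/+, with a median ratio of 0.768, as did 41.2% of all genes. By normalized CPM it was 3 of 10 too, with a median ratio of 0.813, but 54.2% of all genes. In batch 2 SkM, 10 of 10 did, with a median ratio of 2.14 and the largest, 11.1, for Ptprc, as did 57.9% of all genes. By normalized CPM it was 10 of 10 as well, with a median ratio of 2.03, and 52.4% of all genes. The WT mouse of batch 2 gave the lowest SkM library and the LV library with skeletal muscle transcripts. That mouse and E0del/+ replicate 3 had Xist at no more than 4.89 CPM and Ddx3y at 94.1 to 114 CPM, whereas the other 3 mice had Xist at 278 to 806 CPM. Ddx3y was at 12.5 CPM in WT SkM replicate 1, which also had Xist at 397 CPM, and at no more than 1.27 CPM in the other libraries of these 3 mice. In the batch 2 pair sex and genotype cannot be told apart.

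**Figure D5:**
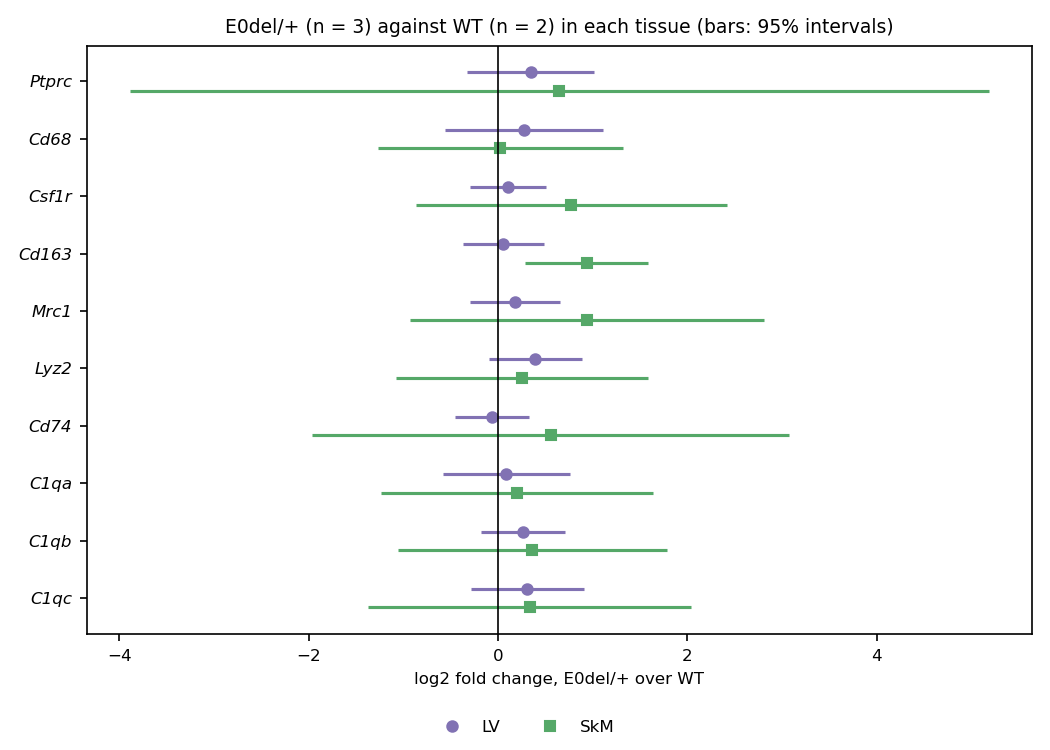
Log2 fold change of E0del/+ over WT for each member in LV and in SkM, with 95% intervals from 3 against 2 libraries. Intervals span 0 except that of Cd163 in SkM (0.29 to 1.59), whose adjusted p did not pass.

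The difference between the tissues' genotype effects was tested itself, with mouse as a block. Of 14327 genes tested 0 were called (0%) by edgeR and 0 by DESeq2, with 238 at an unadjusted p under 0.05, and 0 of 10 members were called. The median over the members was 0.15, and Cd163 had the smallest unadjusted p, 0.0518, with a log2 difference of 0.84 (adjusted p = 1, edgeR). Without WT replicate 1 the median over the members was 0.66. Without both batch 1 mice, an alternative chosen after the data were seen, it was 0.95. WT replicate 2, whose LV library held skeletal muscle transcripts, was the lone WT mouse in both fits. Without WT replicate 2 the median was -0.09, and WT replicate 1 was then the lone WT mouse.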

How the data were processed

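The authors deposited, for each library, a raw count and an RPKM value per gene with exon coordinates. RPKM equalled count per exonic length and total. The submitters' processing notes name mm10, STAR and DESeq2. The counting software is not given in the sources used here. RNA was poly(A) selected and the libraries did not mark strand. CPM was computed from total counts. edgeR 4.0.16 (R 4.3.3) used filterByExpr, TMM and Benjamini-Hochberg adjustment over all genes tested. LV against SkM had mouse as a block, E0del/+ against WT had genotype only. DESeq2 1.42.0, other scalings and filters, blocks and left-out libraries were alternatives. Code was tested on simulated data. LV and SkM were paired by mouse, since replicate numbers mark the animal; their deviations correlated at -0.10 to 0.13. Batch tags pair genotypes: deviations from group means correlated at 0.43 and 0.28 in SkM, and 0.03 and -0.14 in LV. Named list genes were the 2 with the highest mean CPM and up to 3 called genes with the largest change in LV against SkM. The members and 17 lists were chosen with earlier results of these data known. Ighm, Ly6g and Hbb-bt matched no symbol. Some genes of the lists are not reported here.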

Additional observations from a re-analysis of the deposited data

Results flagged for a closer look

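Of 20 sets of 5 libraries (10 members in 2 tissues), 0 had a highest or lowest library beyond Dixon's critical value of 0.71, which chance exceeds in about 1 in 20 sets. In SkM the high Ptprc values came from 2 libraries, so neither stood alone. The test of the difference between the tissues' genotype effects called 0 members (edgeR).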

How the results depend on the processing

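Of 129 member values of LV against SkM under other settings, 116 kept their direction and side of the threshold, 7 lost the call, 2 gained it and 4 turned. In the alternatives added after the data were seen, Ptprc turned to 0.78 with the mice of batches 2 and 3, and to 0.14 with the E0del/+ mice of these batches, where Cd163 was -0.051. Without the mouse as a replicate block, Cd74 was -0.000567. Leaving out each mouse in turn gave 7 to 8 members called and 7240 to 8202 genes.

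In LV, 12 genes differed by genotype with DESeq2, 5 with the replicate block, and 0 to 578 when a library was left out. In SkM 1 gene was called with the replicate block. With total counts Cd74 was 0.0032 in LV and Cd68 -0.0013 in SkM. In SkM, C1qa was -0.080 and C1qc -0.24 with the replicate block. No member was called by genotype under any setting run.

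Leaving out a library moved the genotype log2 fold changes in LV across 0, from -0.072 to 0.31 for Csf1r, -0.068 to 0.16 for Cd163, -0.045 to 0.46 for Mrc1, -0.17 to 0.056 for Cd74 and -0.27 to 0.59 for C1qa. In SkM they ran from -2.12 to 5.64 for Ptprc, -0.15 to 0.22 for Cd68, -0.31 to 1.20 for Lyz2, -0.48 to 2.52 for Cd74, -0.25 to 0.86 for C1qa, -0.10 to 1.04 for C1qb and -0.35 to 1.07 for C1qc. A lone WT library was then assumed to vary like the others. The cause was not tested. With at least 10 counts asked of each library, Ptprc was not tested in SkM, where WT replicate 2 had 9 counts. Depth limits the members with fewest counts in SkM, such as Ptprc with 9 and Mrc1 with 17 in WT replicate 2, and Cd68 with 13 to 16 a library.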

Other observations

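Cd3e differed from the other T cell markers in SkM. It was at 7.88 and 7.05 CPM in the batch 1 SkM libraries and still at 4.33, 3.38 and 4.29 CPM in E0del/+ replicates 2 and 3 and WT replicate 2, where Lck was at 1.20, 0.633 and 0.0572 CPM. In the LV libraries Cd3e did not exceed 0.720 CPM.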
